A study of Strongylocentrotus purpuratus with 8 samples.

Results

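In the genome of the purple sea urchin, Strongylocentrotus purpuratus, 10574 windows of 500 bp were rich in CpG sites and carried almost no cytosine methylation in any of 8 DNA methylation maps. A window was chosen when it held at least 30 CpG sites, had at least 20 calls in each library and had a methylation level of 10% or less in all 8 libraries. A call is 1 read of 1 CpG site as methylated or unmethylated, and the level is the share of methylated calls. The 10574 windows are 0.695% of the 1522405 windows with a listed CpG site, and their 373591 sites are 2.5% of the 14943298 listed sites. Because the levels of all 8 libraries chose these windows, their levels are given as a description and are not tested.

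The libraries were made by whole-genome bisulfite sequencing of DNA from adult tube feet and from embryos at 24, 48 and 72 hours post fertilisation (hpf), with 2 replicates in each of the 4 groups. None of the groups was treated. The series text calls the replicates biological, but how many embryos or animals went into a library is not given in the sources used here, so p-values measure the spread between these libraries. Both kinds of sample mix many cell types, so a level is an average over cells.

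In bisulfite sequencing an unmethylated cytosine is converted and read as thymine, and a methylated cytosine is still read as cytosine. Sea urchins have a mosaic methylome, in which methylated stretches, often inside genes, alternate with unmethylated ones. Methylated cytosines mutate readily to thymine over evolutionary time, and DNA that is methylated in the germline is therefore often poor in CpG. In vertebrates, CpG-rich unmethylated stretches are known as CpG islands and commonly lie at promoters. The genes and the DNA sequence under these windows were not analysed here, so a window is given by its scaffold and position in the Spur3.1 build, counted from 1.

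The libraries held 92803856 and 92088802 calls in adult tube feet, against 75377025 to 126381599 in the 6 embryo libraries. The genome-wide level was 21.6% and 21.0% in adult tube feet and 24.2% to 29.8% in 5 embryo libraries. The embryo library that stood apart was 24 hpf replicate 2, at 42.2%, and the tests over libraries are given with and without it. Unmethylated lambda phage DNA, added before conversion, was called methylated at 0.266% and 0.233% in adult tube feet and at 0.112% to 0.296% in embryos.

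CpG-rich windows were unmethylated about as often as all windows with enough calls, and CpG number alone did not give the level. Of 25843 windows with at least 30 sites, 18356 had enough calls in every library, and the 10574 unmethylated windows were 57.6% of these. Among all 367598 windows with at least 4 sites and 20 calls in every library, the share was 54.0%. Another 1260 of the 18356, or 6.86%, were at 80% or more in all 6 embryo libraries, against 20.0% of all such windows. They are called CpG-dense methylated windows here. The remaining 6522 belonged to neither class. Some library was at 80% or more in 1322 of them, and the highest level was 20% or less in 1287. In 484 of the 6522 only 24 hpf replicate 2 was above the limit of 10%. A further 7487 CpG-dense windows had too few calls, 1713 of them only in 24 hpf replicate 2.

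Among windows with at least 20 calls in every library, the share of unmethylated ones was highest at intermediate CpG number. Coverage was unequal: only 34429 of 408546 windows with 4 to 7 sites had enough calls, against 1499 of 1827 with 45 to 75 sites. The part of this in the shares was not tested. Of windows with enough calls, the unmethylated share was 13.8% with 4 to 7 sites, 60.4% with 12 to 15 sites and 69.5% with 16 to 19 sites. Beyond 29 sites it was lower, at 60.2% with 30 to 34 sites (5903 of 9799), 56.0% with 35 to 39 sites (2733 of 4884), 55.4% with 40 to 44 sites (1204 of 2174) and 49% with 45 to 75 sites (734 of 1499). The share of methylated windows was lower in each successive bin, at 39.6% with 4 to 7 sites, 8.58% with 30 to 34 sites and 3.34% with 45 to 75 sites. The most CpG-rich windows were thus unmethylated less often than windows of middle density, without being methylated more often. The difference was made up by windows that belonged to neither class.

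**Figure D1:**
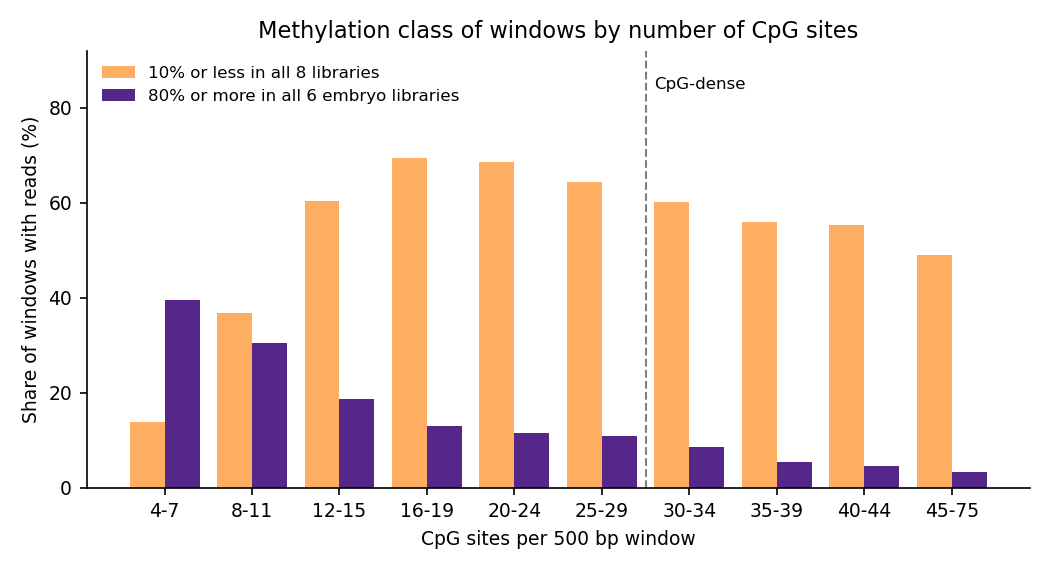
Share of 500 bp windows with at least 20 calls in every library (%) that were at 10% or less in all 8 libraries (orange) or at 80% or more in all 6 embryo libraries (purple), by number of CpG sites. The dashed line marks the limit of 30 sites. The orange bars are highest at 16 to 19 sites (69.5%) and the purple bars become shorter from left to right.

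The unmethylated windows held a median of 34 CpG sites, with quartiles of 31 and 38 and a maximum of 67. Their calls pooled within a library gave levels of 0.570% and 0.553% in adult tube feet, 0.348% and 0.617% at 24 hpf, 0.518% and 0.586% at 48 hpf and then 0.524% and 0.502% at 72 hpf. The Wilson 95% intervals of these levels were at most 0.00751 points on either side, from counting error alone. All 8 levels were above the lambda level of the same library, by 0.303 and 0.320 points in adult tube feet, 0.235 and 0.385 points at 24 hpf, 0.269 and 0.333 points at 48 hpf and then 0.228 and 0.267 points at 72 hpf. The adult values lay within the range of the embryo values.

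The level of a typical window was lower than the pooled level. The median window was at 0.280% and 0.229% in adult tube feet, 0% and 0.202% at 24 hpf, 0.281% and 0.265% at 48 hpf and then 0.316% and 0.215% at 72 hpf. Apart from 24 hpf replicate 1, whose median was 0%, these medians lay close to the lambda level of their library. At a median depth of 295 to 518 calls per window and library, most windows held 0, 1 or a few methylated calls. Windows with no methylated call made up 33.0% and 43.0% in adult tube feet and 26.1% to 54.6% in embryos. In 117 windows no library had a methylated call.

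**Figure D2:**
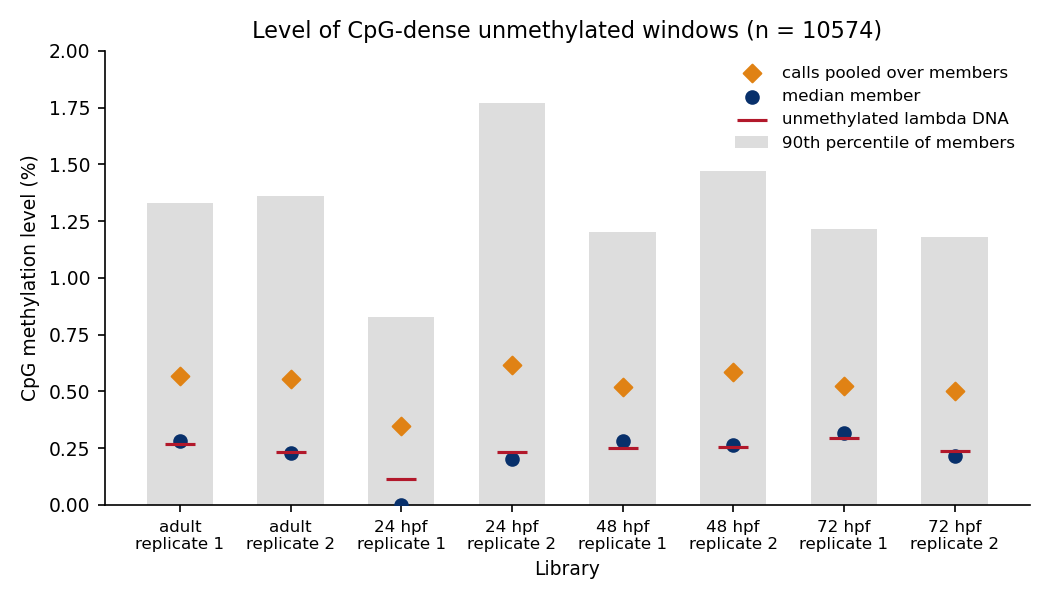
CpG methylation level (%) of the 10574 CpG-dense unmethylated windows in each library. Diamonds are calls pooled over the windows, circles the median window, grey bars the 90th percentile and red lines unmethylated lambda DNA. Diamonds lie between 0.348% and 0.617%, above the red line in each library, while most circles lie near it.

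A minority of windows reached higher levels in some library. In 6069 windows (57.4%) every library was at 1% or less, and in 998 (9.44%) some library was above 5%. The highest level over the 8 libraries had a median of 0.857% and a 90th percentile of 4.83%. Of the 998 windows above 5%, the highest library was adult replicate 1 in 151 and adult replicate 2 in 145, against 71 and 277 for 24 hpf replicates 1 and 2, 56 and 147 for 48 hpf and 73 and 78 for 72 hpf. The largest of these numbers belonged to 24 hpf replicate 2. The adult mean lay within 1 point of the embryo mean in 9084 windows (85.9%), was more than 5 points above it in 71 and more than 5 points below it in 30.

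Within the set, the mean window level was lowest at 30 to 34 sites in every library. The limit on the level that chose these windows keeps differences between bins small, so nothing is read from their size. In adult tube feet the mean window level was 0.562% and 0.519% for windows with 30 to 34 sites, and 0.611% and 0.634% for those with 50 to 67 sites. The 6 embryo libraries gave 0.338% to 0.593% at 30 to 34 sites and 0.40% to 0.833% at 50 to 67 sites. At 35 to 39 sites the mean window level was 0.673% and 0.690% in adult tube feet and 0.409% to 0.741% in embryos. The window with the most sites, 67, was Scaffold200:253001-253500. It was at 1.0% and 1.01% in adult tube feet, 0% and 0.962% at 24 hpf, 0.168% and 0.487% at 48 hpf and then 0.287% and 1.17% at 72 hpf. The value of 0% came from 330 calls, which allow a level of up to 0.909%. The next window, Scaffold1021:109001-109500 with 65 sites, was at 0.459% and 2.91% in adult tube feet, 0% and 0.179% at 24 hpf, 0.252% and 0.503% at 48 hpf and then 0.460% and 1.12% at 72 hpf. Its value of 0% allowed up to 0.656% at 457 calls. Both windows stayed under 3% in every library.

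The limit of 10% cut through a thin tail. Only 185 chosen windows had their highest level between 9% and 10%, and 151 CpG-dense windows with reads had theirs between 10% and 11%. Just inside were Scaffold138:699001-699500 (34 sites), highest in adult replicate 2, Scaffold195:465501-466000 (37 sites), highest in 48 hpf replicate 2, and Scaffold332:545001-545500 (30 sites), highest in 24 hpf replicate 2 on 50 calls. All 3 had a highest level of 10.0%. Just outside, at 10.0% to 10.1%, were Scaffold2280:47001-47500 (38 sites), Scaffold313:610501-611000 (49 sites) and Scaffold3062:4001-4500 (30 sites), each highest in an adult library.

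The unmethylated windows were scattered and mostly single. They lay on 2501 of 28819 scaffolds and covered 5287000 bp. Neighbouring windows joined into 9224 runs, of which 8112 were single windows, and the 1112 longer runs held 2462 windows (23.3%). There were 921 runs of 2 windows, 155 of 3, 30 of 4, 3 of 5, 2 of 6 and 1 of 8. The median gap between runs on 1 scaffold was 22000 bp, with quartiles of 6500 and 64000 bp, and 501 of 6723 gaps were 1000 bp or less. Scaffold4 held the most windows, 45, against a median of 2 per scaffold with any.

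The longest run lay on Scaffold518, as did the one of the 2 runs of 6 windows with more CpG sites. The run at 515501-519500 held 8 windows and 288 CpG sites. Its pooled level was 0.311% and 0.316% in adult tube feet, 0.171% and 0.283% at 24 hpf, 0.269% and 0.330% at 48 hpf and then 0.329% and 0.339% at 72 hpf. The run at 511501-514500 held 6 windows and was at 0.338% and 0.301% in adult tube feet, 0.131% and 0.310% at 24 hpf, 0.282% and 0.301% at 48 hpf and then 0.310% and 0.244% at 72 hpf. No window of either run exceeded 1.37% in any library. Depth was uneven within both: calls per site over the library's median of the set, averaged over libraries, ran from 0.525 to 27.2 in the first run and from 0.900 to 96.4 in the second.

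Depth was not part of the rule beyond the minimum of 20 calls, and it was compared between unmethylated and CpG-dense methylated windows. Calls per site in unmethylated windows were 1.24 and 1.25 times those in methylated windows in adult tube feet, 1.42 and 0.431 times at 24 hpf, 1.30 and 0.80 times at 48 hpf and then 1.39 and 1.12 times at 72 hpf. Thus 6 of 8 libraries read the unmethylated windows more deeply, whereas 24 hpf replicate 2 had 18.2 calls per site in unmethylated windows against 42.3 in methylated ones. The mean log2 ratio over libraries was 0.08, a fold of 1.06, and did not pass an exact two-sided sign-flip test (p = 0.766, adjusted p = 0.766 over 5 tests). Without 24 hpf replicate 2 it was 0.26 (exact sign-flip p = 0.0625). Over all 8 libraries, its direction turned to -0.09 when windows of 5 or more times the median depth were left out. Adult tube feet averaged 0.32 ± 0.01 on the log2 scale (SD, n = 2) and embryos -0.0032 ± 0.67 (SD, n = 6), a difference of 0.32 that did not pass an exact two-sided permutation test (p = 0.643, adjusted p = 0.766). Without 24 hpf replicate 2 the difference was 0.08 (exact permutation p = 0.810), and over libraries left out it ranged from 0.08 to 0.42.

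Within the set, depth depended on CpG number in 24 hpf replicate 2 more than in any other library. For the 238 windows with 50 to 67 sites, the median number of calls per site, divided by the library's median over all unmethylated windows, was 1.02 and 0.836 in adult tube feet, 1.01 and 2.99 at 24 hpf, 1.02 and 1.21 at 48 hpf and then 1.11 and 0.766 at 72 hpf. In 24 hpf replicate 2 the ratio was 0.860 at 30 to 34 sites, 1.04 at 35 to 39, 1.29 at 40 to 44 and 1.92 at 45 to 49. This is also the library with the highest pooled level of these windows, 0.617%. The part of its uneven depth in that level was not tested.

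**Figure D3:**
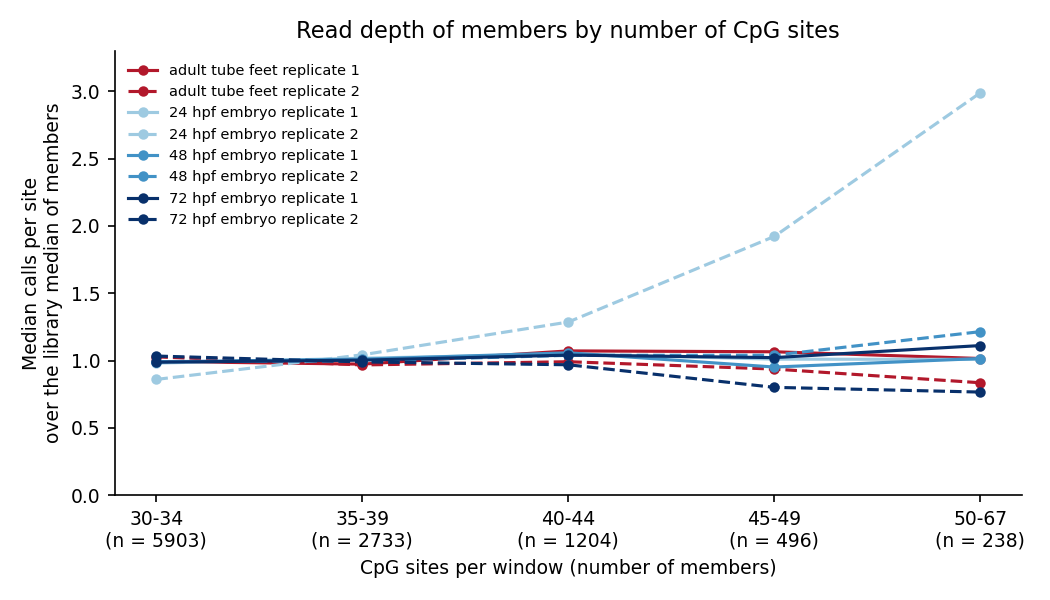
Median calls per CpG site of the unmethylated windows, divided by the library's median over all of them, by number of CpG sites per window. Each line is a library, red for adult tube feet and blue for embryos. At 50 to 67 sites 24 hpf replicate 2 reaches 2.99, and the other 7 libraries lie between 0.766 and 1.21.

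A few unmethylated windows had very many reads. Depth relative to the library's median over the set, averaged over libraries, was between 0.300 and 2.13 from the 5th to the 95th percentile. It was at least 5 in 60 windows and at least 10 in 37, which held 11.7% of all calls in the set. Of the 37 windows, 16 lay on Scaffold518, 8 on Scaffold1117, 6 on Scaffold1453, 5 on Scaffold4475, and 1 each on Scaffold1020 and Scaffold47. Their pooled level was 0.428% and 0.364% in adult tube feet, 0.192% and 0.420% at 24 hpf, 0.358% and 0.386% at 48 hpf and then 0.371% and 0.302% at 72 hpf. Each of these values was below that of the whole set in the same library.

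The deepest window was Scaffold518:509001-509500, with 45 sites. Its relative depth was 101 and 91.5 in adult tube feet, 125 and 130 at 24 hpf, 90.5 and 112 at 48 hpf and then 118 and 126 at 72 hpf. Its levels ran from 0.279% to 0.535% on 35832 to 64354 calls per library. The adjoining window, 509501-510000 with 38 sites, had relative depths of 96.1 and 92 in adult tube feet and 89.2 to 127 in embryos. Among the 37 deep windows, 26 shared a stretch of 8 successive CpG spacings with another of them on another scaffold.

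Some unmethylated windows were read far more deeply in embryos. Depth was at least 4-fold lower in adult tube feet, with no overlap between the groups, in 378 unmethylated windows (3.57%), against 1.51% of all 367598 windows with at least 4 sites and 20 calls in every library. It was at least 4-fold higher in 99 (0.936%), against 0.324% of all such windows. Of the 37 deepest windows, 3 were among those lower in adult tube feet. An example chosen after its values were seen is Scaffold4475:11501-12000, with 38 sites. Its relative depth was 0.465 and 0.242 in adult tube feet, 17.7 and 41.3 at 24 hpf, 15.5 and 17.1 at 48 hpf and then 20.2 and 16.7 at 72 hpf. The next window, 12001-12500, had 1.44 and 0.775 in adult tube feet, 20.2 and 38.0 at 24 hpf, 15.9 and 17.6 at 48 hpf and then 24.1 and 19.6 at 72 hpf. In both windows every embryo library lay above both adult libraries. These depth differences were not tested, and differences between animals cannot be told apart from differences between stages.

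Methylation stayed low for kilobases beyond the unmethylated windows. Outside windows are those that begin within 5 kb of a run and have at least 4 sites and 20 calls in every library. Left out were windows of the set itself and windows with 4 to 10 sites at 10% or less in all 8 libraries. Other unmethylated windows were kept. Of 44713 outside windows, 38500 (86.1%) were at 10% or less in all 8 libraries, against 54.0% of all windows with at least 4 sites and 20 calls in every library. From the latter nothing was left out, and CpG number was not matched. Only 778 (1.74%) were at 80% or more in all embryo libraries, against 20.0% of all windows. Mean levels next to a run, at 500 bp, were 1.44% in adult tube feet and 1.71% in embryos. At 5 kb they were 7.55% in adult tube feet and 8.92% in embryos, against 27.1% to 27.4% and 31.5% to 34.3% for the average window of the genome.

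The surroundings of CpG-dense unmethylated windows were compared with those of CpG-poor ones, and the mean over 5 kb showed no stable difference. The comparison set was runs of 22867 windows with 4 to 10 sites that met the same limits of calls and level. Around these, means were 1.29% in adult tube feet and 1.55% in embryos at 500 bp, and 8.44% in adult tube feet and 9.65% in embryos at 5 kb. At 500 bp the level was thus higher around CpG-dense runs in every library, and at 5 kb it was lower in every library. These opposite differences offset each other in a mean over 5 kb, and they were not tested by distance. Averaged over the 5 kb, the level outside CpG-dense runs was lower by 0.0446 points, negative in 6 of 8 libraries, and the exact two-sided sign-flip test gave p = 0.0859 (adjusted p = 0.430). Without 24 hpf replicate 2 the difference was -0.0595 points (unadjusted exact p = 0.0313). The direction turned with the limits: the difference was 0.189 points with at least 40 calls per window and 2.72 points with at least 20 sites.

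Near the unmethylated runs, both adult libraries were below all embryo libraries. The mean outside level was 4.02% and 4.0% in adult tube feet, 4.22% and 5.80% at 24 hpf, 4.34% and 4.80% at 48 hpf and then 4.43% and 4.49% at 72 hpf. The means were 4.01% ± 0.02 (SD, n = 2) in adult tube feet and 4.68% ± 0.58 (SD, n = 6) in embryos. The difference of -0.669 points did not pass the exact two-sided permutation test (p = 0.179, adjusted p = 0.446, smallest possible p = 0.0357). Without 24 hpf replicate 2 it was -0.444 points, with an unadjusted exact permutation p = 0.0476, the smallest that 21 arrangements allow. When the windows were also chosen without that library it was -0.504 points (exact permutation p = 0.0952). Relative to the genome-wide window level, the outside level did not differ detectably: the log2 ratio was -2.76 ± 0.01 in adult tube feet (SD, n = 2) and -2.80 ± 0.13 in embryos (SD, n = 6), with an exact permutation p = 0.679 (adjusted p = 0.766). Without 24 hpf replicate 2 that difference was 0.09 in place of 0.04 (exact permutation p = 0.238).

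**Figure D4:**
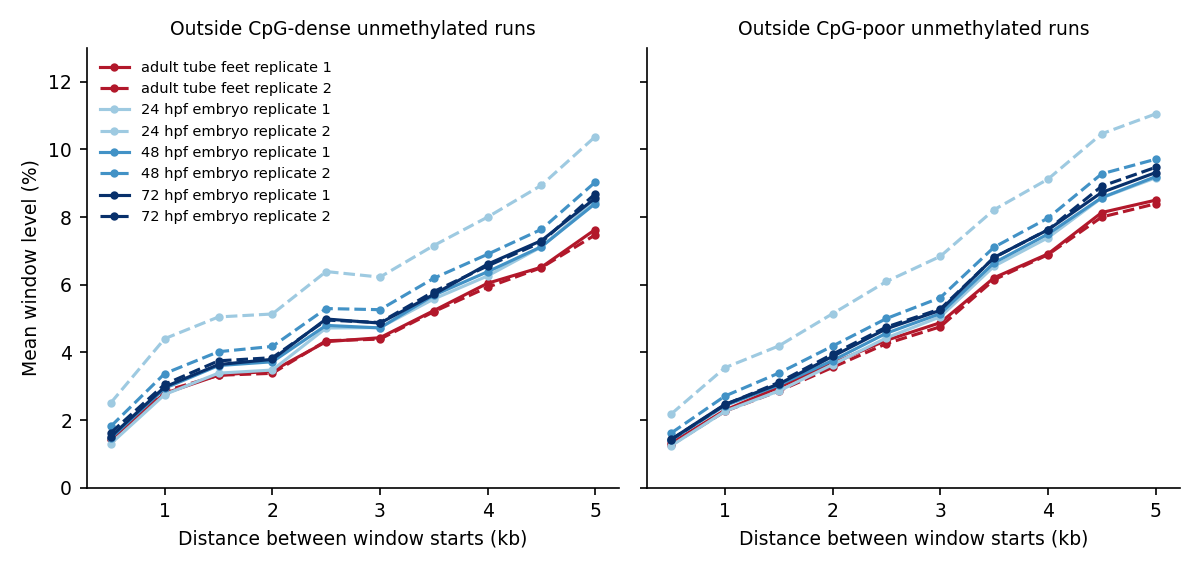
Mean methylation level (%) of windows outside runs of CpG-dense unmethylated windows (left) and of CpG-poor unmethylated windows (right), by distance between window starts (kb). Each line is a library, red for adult tube feet, blue for embryos and dashed for replicate 2. Levels are higher at 5 kb than at 500 bp in every library, reaching 7.55% (adult mean) and 8.92% (embryo mean) at 5 kb on the left, and 24 hpf replicate 2 lies highest.

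Few runs had a strongly methylated window among the neighbours measured. Many CpG-poor neighbours could not be measured: genome-wide, only 34429 of 408546 windows with 4 to 7 sites had enough calls in every library. The same share was not counted around other windows. Of 8850 runs with a measured neighbour, CpG-poor unmethylated ones included, 8.64% and 8.86% had a window at 50% or more within 5 kb in adult tube feet. The embryo values were 8.94% and 13.8% at 24 hpf, 8.99% and 10.1% at 48 hpf and then 9.21% and 9.47% at 72 hpf. The highest value again belonged to 24 hpf replicate 2.

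The windows next to the unmethylated runs were then compared between adult tube feet and 72 hpf embryos. The CpG-poor unmethylated windows that were left out of the outside windows above were counted here. The limit of 10% makes a difference of 20 points impossible for them. Of 24991 windows within 2 kb of a run, 93 were higher in adult tube feet (0.372%, against 0.97% of all 367598 windows tested) and 133 were lower (0.532%, against 9.22%). Calls needed an adjusted p below 0.05 in a quasi-binomial model over all windows and a difference of at least 20 points. None of the 10574 unmethylated windows was called, which the limit of 10% makes inevitable. The 226 windows called are 0.904% of the neighbours, against 10.2% of all windows tested. Without adult replicate 1 their number became 129, and without adult replicate 2 it became 132.

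Few neighbours started from a level at which a loss could be seen, so the windows were also split by their level at 48 hpf. That level does not enter the difference between adult tube feet and 72 hpf embryos, but the 48 hpf libraries do enter the model's estimate of the spread. Of the 230 neighbours at 80% or more, 34 were lower in adult tube feet (14.8%, against 24.4% of all such windows) and 0 were higher (against 0.0201%). Of the 578 between 20% and 80%, 90 were lower (15.6%, against 20.0%) and 26 were higher (4.50%, against 3.28%). Of the 24183 at 20% or less, 67 were higher (0.277%, against 0.912%) and 9 were lower (0.0372%, against 0.14%). The windows directly adjoining a run, at 500 bp, gave 26 higher and 23 lower among 9237, and those at 2 kb gave 21 higher and 39 lower among 4614. The higher windows had a median of 43.5% in adult tube feet and 3.67% at 72 hpf, and the lower ones a median of 6.38% in adult tube feet and 53.6% at 72 hpf.

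Among called neighbours whose groups did not overlap and that had at least 50 calls in each of the 4 libraries, the 2 largest gains directly adjoined an unmethylated window. Scaffold721:299001-299500, with 32 CpG sites of its own, was at 81.2% and 67.0% in adult tube feet, on 345 and 200 calls. It was at 0% and 0% at 24 hpf, 0.475% and 0.660% at 48 hpf and then 0% and 0% at 72 hpf, where 255 and 336 calls allow up to 1.18% and 0.893%. The Wilson 95% intervals of the adult levels were 76.7% to 84.9% and 60.2% to 73.1%. Adult tube feet were higher than 72 hpf embryos by 76.0 points (adjusted p = 5.36e-05). The adjoining unmethylated window, 299501-300000 with 33 sites, was at 8.26% and 5.0% in adult tube feet and at most 0.749% in any embryo library. It lies inside the limit of 10%, yet its adult libraries were both above its embryo libraries.

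Scaffold2322:25501-26000, with 41 sites, was at 71.4% and 81.6% in adult tube feet, on 290 and 244 calls, against 0.543% and 0% at 72 hpf, where the value of 0% allows up to 0.576%. The difference was 75.7 points (adjusted p = 5.45e-05). Its unmethylated neighbour at 26001-26500, with 34 sites, was at 5.10% and 4.63% in adult tube feet and 1.54% and 0% at 72 hpf. At both places the window on the far side of the gain was again at 1.54% or less in adult tube feet.

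Under the same limits, the 2 largest losses lay between an unmethylated window and methylated DNA. Over all called neighbours the largest loss was -90.3 points. Scaffold596:238001-238500, with 18 sites, was at 0% and 0.641% in adult tube feet, against 92.4% and 86.3% at 24 hpf, 83.5% and 88.6% at 48 hpf and then 90.1% and 86.7% at 72 hpf. The adult value of 0% came from 106 calls, which allow up to 2.83%. Adult tube feet differed from 72 hpf embryos by -87.2 points (adjusted p = 4.71e-05). The unmethylated window lay 1500 bp away at 240001-240500, held 31 sites and had no methylated call in any adult or 72 hpf library. The next window measured beyond the loss was at 90.4% and 87.5% in adult tube feet and 91% and 93.1% at 72 hpf.

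Scaffold782:203501-204000, with 25 sites, was at 4.49% and 2.80% in adult tube feet, against 67.5% and 81.3% at 24 hpf, 87.6% and 83.3% at 48 hpf and then 78.0% and 77.4% at 72 hpf. The difference from 72 hpf was -73.9 points (adjusted p = 7.78e-05). Its unmethylated window, 204501-205000 with 30 sites, lay 500 bp away and reached at most 1.53% in any library. Farther out, at 2 kb, the level was 73.4% and 77.1% in adult tube feet and 84% and 76.5% at 72 hpf. In the gains, the windows measured on both sides of the methylated one were at 8.26% or less in adult tube feet. In the losses, no window between the unmethylated window and the called one had enough sites and calls to be measured.

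**Figure D5:**
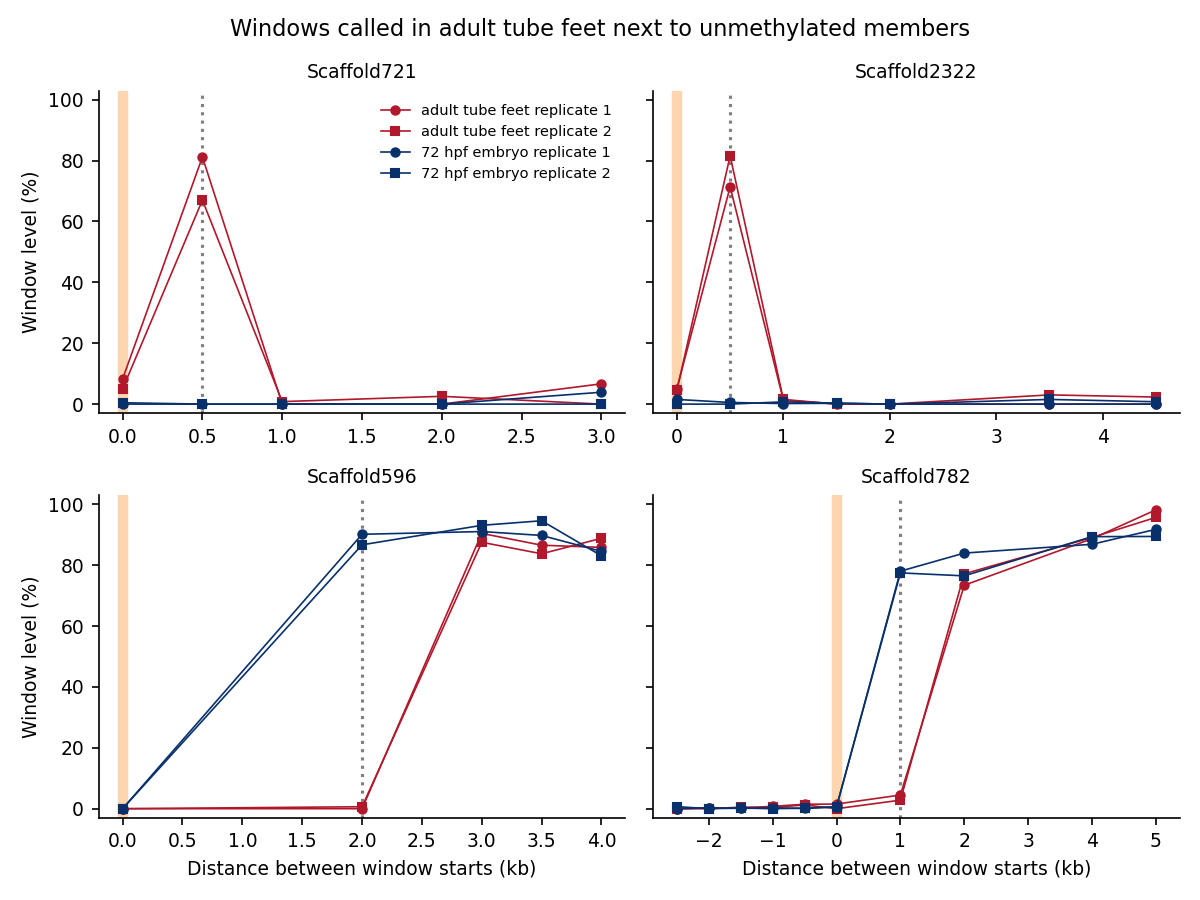
Methylation level (%) of windows around the 2 largest gains and 2 largest losses near unmethylated windows, among those with at least 50 calls in each library and groups that did not overlap, by distance between window starts (kb) from the unmethylated window (orange band). Red is adult tube feet, blue 72 hpf embryos, and the dotted line marks the window called. On Scaffold721 and Scaffold2322 a single adult window stands at 67.0% to 81.6%, and on Scaffold596 and Scaffold782 the called window is at 4.49% or less in adult tube feet and at 77.4% or more at 72 hpf.

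Single CpG sites inside the unmethylated windows are described from the same calls that chose the windows, so low levels follow from the rule. The shares with no methylated call, or at 20% or more, were not counted over all listed sites. Of the 373591 sites in these windows, 62743 had at least 10 calls in every library, and 37061 of these (59.1%) had no methylated call in any. Sites at 20% or more in some library numbered 450 (0.717%) in 214 windows, and no site reached 20% in all 8. There were 97 and 96 such sites in adult tube feet, 71 and 201 at 24 hpf, 86 and 120 at 48 hpf and then 78 and 88 at 72 hpf. The largest number was again that of 24 hpf replicate 2.

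At 3 sites both adult libraries were at 50% or more and all embryo libraries at 10% or less. They are 0.00478% of the 62743 sites, against 0.0421% of the 539235 listed sites with as many calls. No site showed the reverse, adult libraries at 10% or less and embryo libraries at 50% or more, against 0.652% of listed sites. The limit on the windows bears on both counts, so nothing is read from them. The 3 sites were chosen after their values were seen. The site at Scaffold69:644683 was at 55.6% and 56.3% in adult tube feet and at most 5.88% in embryos. The site at Scaffold682:182169 was at 84.6% and 66.7% in adult tube feet and at most 8.33% in embryos, and that at Scaffold1221:83107 at 62.5% and 53.8% in adult tube feet and at most 5.26% in embryos. Each adult value rests on 13 to 24 calls, and its Wilson 95% interval is accordingly wide, from 57.8% to 95.7% for the value of 84.6%.

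The spacing of CpG sites showed which unmethylated windows share sequence layout, without the sequence itself. Neighbouring sites lay a median of 9 bp apart, and 9.25% of spacings were 2 bp, as in the run CGCG, against 7.16% in CpG-dense methylated windows and 15.1% in the other CpG-dense windows with enough calls. Of the unmethylated windows, 4493 (42.5%) shared a stretch of 8 successive spacings with another of them. The stretch shared most widely, with spacings of 2, 5, 2, 12, 29, 5, 8 and 6 bp, occurred in 328 windows. Windows that share such a layout are not independent of each other.

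A core of this layout, 5 CpG sites spaced 2, 12, 29 and 5 bp apart over 50 bp, was chosen from these data and searched in both orientations among all listed sites. It was found 7489 times, 3622 in one orientation and 3867 in the other, in 5380 windows. It occurred in 956 unmethylated windows (9.04%), in 4 CpG-dense methylated windows (0.317%), in 875 CpG-dense windows of neither class (13.4%) and in 1141 with too few calls (15.2%). Among windows with 20 to 29 sites it occurred in 0.718% of unmethylated and 0.112% of methylated ones. The core was taken from the unmethylated windows, which favours a higher share there than in methylated ones, so nothing is read from that difference. Its share was highest in CpG-dense windows that were of neither class or were too thinly covered.

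Within the 956 unmethylated windows, the 5 sites of the core were at 1.42% and 1.40% in adult tube feet, 0.970% and 1.81% at 24 hpf, 1.26% and 1.81% at 48 hpf and then 1.18% and 1.28% at 72 hpf. The other sites of these windows were at 1.18% and 1.11% in adult tube feet and at 0.803% to 1.32% in embryos. Windows with the core were therefore more methylated than the set as a whole, whose highest pooled level was 0.617%, though still within the limit. In 24 hpf replicate 2 the core sites had 13327 calls, against 54593 to 113687 in the other 7 libraries.

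In 2404 windows with fewer than 30 sites, where the rule never applied, the same core was at 6.64% and 7.16% in adult tube feet, 5.87% and 17.2% at 24 hpf, 6.12% and 9.55% at 48 hpf and then 5.80% and 7.95% at 72 hpf. Outside 24 hpf replicate 2 the range was 5.80% to 9.55%. Only 98 of these copies had 20 calls in every library, and of these 32 were at 10% or less in all 8 libraries and 1 was at 80% or more in all embryo libraries. The other copies met neither limit.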

How the data were processed

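Methylation was measured by MethylC-seq in 8 libraries. The authors deposited 1 table per library with the counts of methylated and unmethylated calls at each CpG site, not normalized, and the level as a percent cut to a whole number. Per the file headers, the tables come from MethylDackel on merged, deduplicated reads of build Spur3.1 with lambda DNA. The submitters' processing notes also name Trimmomatic and Picard. No aligner or tool version, and no rule for reads that match several places, which bears on repeated windows, is given in the sources used here. The deposited percent differed from the counts in 0 rows, and the counts were used.

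Sites listed in any file were assigned to windows of 500 bp and counts were summed. One read gives a call at every CpG it spans, and reads carry no molecular identifiers, so intervals (Wilson, 95%) and limits for a count of 0 (3 calls) cover counting error only. Values per library were tested with exact permutation tests over 256 sign flips or 28 splits (smallest p-values 0.00781 and 0.0357), and p-values were adjusted by Benjamini-Hochberg over 5 tests. Windows with at least 4 sites and 20 calls in every library (367598) were tested with a quasi-binomial model over all libraries, with dispersions moderated by limma 3.58.1 (squeezeVar, lower bound 1) in R 4.3.3, and adjusted over all of them. Where the mean level was under 2.5% or over 97.5%, the p-value was set to 1. The model was tested on simulated data. Python 3.11.15 was used otherwise.

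Windows named are those with the most sites, the longest runs, the deepest, those nearest to the limit and the 2 largest gains and losses among outside windows whose groups do not overlap and with at least 50 calls in each of the 4 libraries. The windows and comparisons were chosen with earlier results of these data known. Naming genes, including the gene lists intended for this, needs the position of genes in this build and was not done here. Alternatives covered the limits of calls, sites and level, the grid of windows, the summary, another test, a replicate block and each library left out.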

Additional observations from a re-analysis of the deposited data

Results flagged for a closer look

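Of 9 measures examined over the 6 embryo libraries, 3 had a library set apart from the rest by Dixon's criterion, where chance gives about 0.05 per measure and the measures are related. The library was 24 hpf replicate 2 each time. Its mean level outside the unmethylated runs was 5.80%, against 4.22% to 4.80% in the other embryo libraries. Its depth in unmethylated windows with at least 50 sites was 2.99 times its median over the set, against 0.766 to 1.21 in the others. It had a window at 50% or more within 5 kb of 13.8% of runs, against 8.94% to 10.1%. Its genome-wide level over all calls was also the highest of the embryo libraries, 42.2%. Averaged over windows with enough sites and calls, that level was 34.3%, against 31.5% to 32.5% in the other embryo libraries. The cause of these differences was not tested.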

How the results depend on the processing

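The number of unmethylated windows was 58074 with at least 20 sites and 1938 with at least 40, and stayed between 9494 and 11861 with other limits of calls or level, a shifted grid or a library left out. The depth ratio of 0.08 turned to -0.156 with at least 20 sites and, in choices made after seeing the data, to -0.0764 with medians and -0.0941 without the deepest windows, and ranged from 0.0166 to 0.262 with a library left out. The difference outside dense and CpG-poor runs was -1.01 with 10 calls, 0.189 with 40 calls, 0.0425 with the limit at 5%, 2.72 with at least 20 sites and -0.232 with every outside window counted. Over libraries left out it was -0.0595 to -0.0316, with -0.0595 without 24 hpf replicate 2. When windows were also chosen without that library, after seeing the data, it was -1.08. The adult minus embryo difference outside was -0.761 to -0.444 over libraries left out. Relative to the genome it turned to -0.00355 with pooled calls. The neighbours called (226, with 93 higher and 133 lower in adult tube feet) were 388 (175 and 213) with 10 calls, 115 (53 and 62) with 40 calls, 49 (26 and 23) for adjoining windows and 379 (160 and 219) at 10 points. Limma on log2 ratios called 55 higher. With a library left out the total was 129 to 283, higher 52 to 114 and lower 67 to 169, a lone library being assumed to vary like the others. The 4 named neighbours kept their calls in all 12 alternatives. Correlations of replicate differences between groups ran from -0.00360 to 0.258, the highest between 24 and 48 hpf. At 24, 48 and 72 hpf alike, replicate 2 had a higher outside level and a lower depth ratio than replicate 1. In adult tube feet the replicates lay close together. A replicate block gave 244 neighbours called and differences of 0.32, -0.669 and 0.04 for depth, outside level and relative outside level. The causes of these changes were not tested. Depth limits single sites most: 62743 of 373591 had 10 calls in every library.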
